A study of Mus musculus with 12 samples.

Results

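Wounds labelled DSCG were compared with wounds labelled blank, to ask which genes differ in a diabetic skin wound under an established mast cell stabilizer and how large a difference these libraries could have missed. The libraries were chosen by the treatment label alone, which took 6 of the 12 libraries of the series, 3 DSCG and 3 blank. Both groups are C57BL/6 mice with diabetes induced by streptozotocin, a toxin that destroys the insulin-producing cells of the pancreas, and in both the tissue is a wound of the back skin. Each library came from a different mouse. DSCG commonly stands for disodium cromoglycate, also called cromolyn. The labels do not say what the blank wounds received, and give no dose, route, vehicle, wound age or sex, so DSCG and blank are used here as labels. Replicate numbers follow record order and carry no pairing. The other 6 libraries, of wounds labelled pre-MCS-01 and post-MCS-01, entered the filter on low counts and the shared estimate of the spread, and are set beside DSCG and blank once, at the end.

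Mast cells lie around the vessels and nerves of the dermis and store granules filled with histamine, heparin and proteases. In rodent connective tissue these proteases are mainly chymases, tryptases and carboxypeptidase A3. Crosslinking of the high-affinity IgE receptor, neuropeptides acting on the receptor Mrgprb2, and other stimuli empty the granules, which opens vessels and draws in neutrophils. Cromoglycate is known as a drug that hinders this release and as an agonist of the receptor Gpr35. Release of granules is not itself a change in RNA, so the counts measure messenger RNA of the wound and not degranulation.

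The libraries were unequal in ways that touch the results. Gene counts totalled 40246031, 48257392 and 44160140 in DSCG replicates 1, 2 and 3, and 50461867, 45704405 and 3835042 in blank replicates 1, 2 and 3. Blank replicate 3 was thus far shallower than the other 5. In it 1 read equals 0.262 CPM (counts relative to the library total, after TMM scaling), and a count of 0 allows a level of up to 0.786 CPM (3 counts), against 0.0588 to 0.0760 CPM in the other 5. These limits cover counting error only. DSCG replicate 2 and blank replicate 3 were also short of long transcripts. Across genes, the rank correlation of a library's deviation in log2 CPM with exon length was -0.33 and -0.32 in these 2 libraries, against 0.01 to 0.28 in the other 4. Outside the 6 libraries compared, pre-MCS-01 replicate 2 had -0.38. It entered the shared estimate of the spread, and stayed in the fit that left out DSCG replicate 2 and blank replicate 3. Keratins of the epidermis were present in all 6 libraries. Krt14, of the basal layer, measured 13682, 13545 and 4571 CPM in DSCG replicates 1, 2 and 3 and 7366, 6286 and 11107 CPM in blank replicates 1, 2 and 3, an order kept for all values below.

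No gene passed the test between DSCG and blank wounds. Of 16267 genes tested, 0 (0%) reached an adjusted p under 0.05 in edgeR's quasi-likelihood test, and the smallest adjusted p was 0.999. An unadjusted p under 0.05 was reached by 167 genes (1.03%), 87 higher (0.535%) and 80 lower (0.492%) in DSCG. Were no gene different, calibrated p-values would put a share of about 0.05 there, so 1.03% is fewer than that. The reason for this shortfall was not tested. By estimate 8101 genes (49.8%) were higher in DSCG. TMM scaling centres the estimates, so that share depends on the scaling, and it was 45.1% with total-count scaling. It also depends on the fit, and was 44.6% by limma-voom with quality weights, where TMM scaling was kept. Of all genes tested, 598 (3.68%) had 3 DSCG values that did not overlap the 3 blank values, 310 higher (1.91%) and 288 lower (1.77%), and with total-count scaling 218 were higher and 282 lower. DESeq2 and limma-voom also called 0 genes, with 256 and 171 at an unadjusted p under 0.05. DESeq2 tested 20494 genes, and its smallest adjusted p was 0.0635, closer to the threshold than edgeR's. Without the shallow blank replicate 3, edgeR again called 0 genes, with 263 at an unadjusted p under 0.05 and a smallest adjusted p of 0.446. The replicates are separate mice, so the spread that enters these p-values includes differences between animals. The Pearson correlation of log2 CPM was 0.934 to 0.949 within DSCG, 0.940 to 0.980 within blank and 0.934 to 0.978 between the groups.

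**Figure D1:**
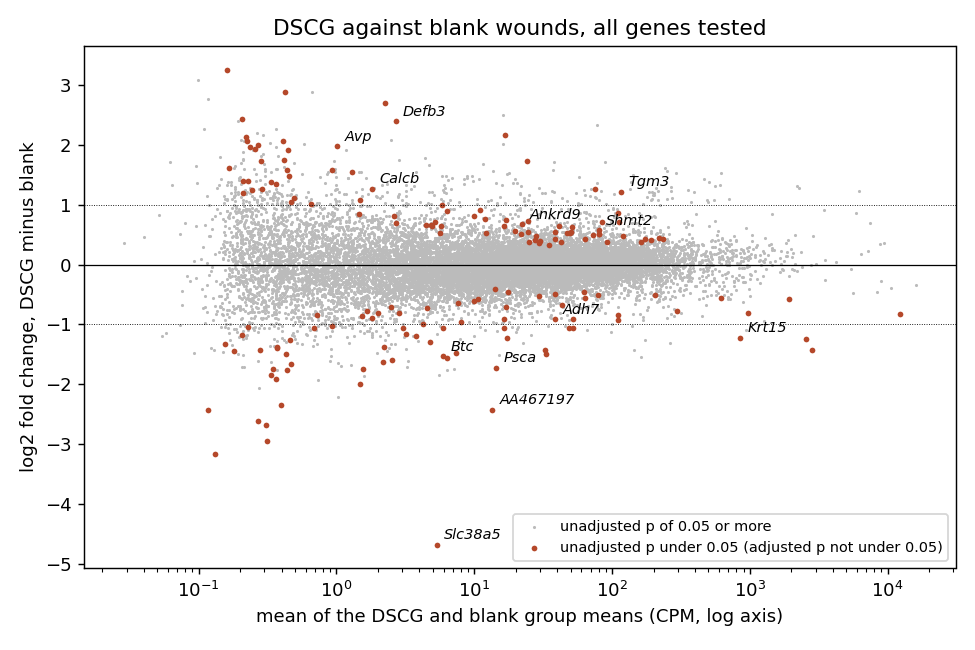
Each point is 1 of the 16267 genes tested. The x axis is the mean of the group means in CPM (log axis), the y axis is the log2 fold change of DSCG minus blank, and red points are the 167 genes with an unadjusted p under 0.05. The red points are spread over both directions, and none has an adjusted p under 0.05.

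What the libraries allowed can be read from the 95% interval of each log2 fold change. For 8883 genes (54.6%) the interval lay within a factor of 2 in both directions, and for 14599 (89.7%) within a factor of 4. Taken by direction, the interval did not reach a 2-fold rise in 11937 genes (73.4%) and did not reach a 2-fold fall in 11333 (69.7%). A factor of 1.5 in both directions was met by only 2745 genes (16.9%), so differences of that size were within the intervals of most genes. Estimates themselves passed 2-fold in 567 genes (3.49%) and 4-fold in 36 (0.221%).

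Passing the test across all genes asks for more. With 16267 genes, a gene that stood alone would need an unadjusted p-value of 3.07e-06 in edgeR's test, and the smallest was 0.000726. For the median gene, that corresponds to a 6.85-fold difference at the standard error observed, while an unadjusted p of 0.05 corresponds to 1.65-fold (10th to 90th percentile, 1.34 to 2.77). At their standard errors, 4003 genes (24.6%) would have passed alone with an estimate of 4-fold, and 0 genes with an estimate of 2-fold. These folds are approximate, because they come from the standard error and t quantile of the intervals and not from edgeR's test itself. For 11 genes the interval and an unadjusted p under 0.05 in that test differed.

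Precision followed the level of a gene. Among 2158 genes under 1 CPM the median interval reached a factor of 2.59 either side of the estimate, and 68 (3.15%) lay within 2-fold. Between 1 and 10 CPM the factor was 1.83, and 1588 of 4182 genes (38.0%) lay within 2-fold. Between 10 and 100 CPM it was 1.5, with 5832 of 7989 genes (73.0%) within 2-fold. At 100 CPM and over it was 1.52, with 1395 of 1938 genes (72.0%) within 2-fold, no narrower than in the class below. The narrowest interval among genes of at least 10 CPM was that of Lta4h, the enzyme that makes leukotriene B4. It measured 58.7, 57.4 and 56.0 CPM in DSCG and 57.2, 55.7 and 54.8 CPM in blank wounds. Its log2 fold change was 0.04 ± 0.13 (SE), which allows a rise of up to 1.25-fold and a fall of up to 1.19-fold. Even here a 2.16-fold difference would have been needed to pass.

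**Figure D2:**
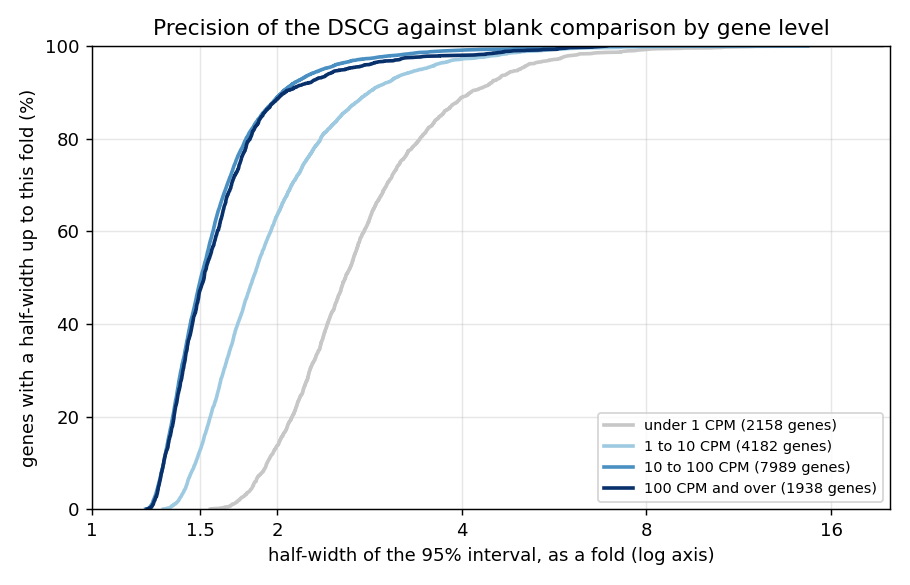
The x axis is the factor that the 95% interval of a gene's fold change reaches either side of the estimate (log axis), and the y axis is the share of genes with a factor up to that value, in 4 classes of mean CPM. The 2 upper classes rise together and reach 50% of their genes near 1.5, while genes under 1 CPM reach it near 2.6.

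The genes closest to the threshold are named by the size of p among those averaging 1 CPM or more, and none of them passed the adjustment. Choice by p favours groups that do not overlap, so a lack of overlap among these genes is no separate evidence. The lowest p belonged to AA467197, whose product is found in mitochondria (chromosome 2, 122636986 to 122641191, GRCm38, as for all positions). It measured 4.48, 3.80 and 4.21 CPM in DSCG and 7.08, 24.0 and 37.5 CPM in blank wounds. Every DSCG value lay below every blank value, and the DSCG values were close together while blank replicates 2 and 3 were far above blank replicate 1. The log2 fold change was -2.42 ± 0.50 (95% interval -3.53 to -1.32, edgeR adjusted p = 0.999).

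Among the other 11 genes named on the lower side, 3 are enzymes that act on alcohols, aldehydes or glutathione conjugates. Adh7, an alcohol dehydrogenase that also oxidizes retinol (chromosome 3, 138217760 to 138233382), measured 26.9, 21.0 and 32.7 CPM in DSCG and 36.3, 52.4 and 63.7 CPM in blank wounds. The groups did not overlap, and the log2 fold change was -0.91 ± 0.24 (-1.44 to -0.39). Aldh3a1, an aldehyde dehydrogenase of surface epithelia (chromosome 11, 61207537 to 61218421), measured 31.3, 27.8 and 35.9 CPM against 46.4, 68.8 and 84.1 CPM, again without overlap, at -1.06 ± 0.37. Gsta3, a glutathione S-transferase (chromosome 1, 21240589 to 21265661), measured 1.85, 1.71 and 2.46 CPM against 3.78, 5.36 and 3.14 CPM, at -1.06 ± 0.36. It did not overlap either. They are put side by side after their values were seen and were on no common list.

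The remaining genes on that side were of varied kinds. Psca, a GPI-anchored surface protein, measured 5.42, 7.65 and 7.05 CPM in DSCG and 7.80, 36.8 and 22.0 CPM in blank wounds, with a log2 fold change of -1.73 ± 0.52. Its groups touched without overlap, and blank replicates 2 and 3 made the difference. Betacellulin (Btc), a ligand of the EGF receptor, measured 3.34, 1.41 and 4.36 CPM against 3.39, 12.9 and 10.2 CPM, where blank replicate 1 lay inside the DSCG range. Slc38a5, an amino acid transporter, had the largest estimate of the genes named, at -4.68 ± 1.43 (-7.81 to -1.55). It measured 0.0253, 0.418 and 0.720 CPM in DSCG and 0.353, 16.9 and 13.6 CPM in blank wounds, so blank replicate 1 overlapped the DSCG values and the estimate rests on blank replicates 2 and 3. Paqr7, a membrane progestin receptor, measured 24.8, 24.3 and 52.0 CPM against 73.0, 80.9 and 57.6 CPM, without overlap, at -1.07 ± 0.36. The others named by p on the lower side were Arsk (-1.19), a lysosomal sulfatase, Gsdma2 (-1.57), a gasdermin, Klk10 (-0.77), a kallikrein-related peptidase, and Slc35e4 (-0.56). Blank replicate 2 was the highest of the 6 libraries in Psca, Btc, Slc38a5 and Paqr7.

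On the higher side the smallest p was that of Ankrd9, an ankyrin repeat protein (chromosome 12, 110975353 to 110979040). It measured 26.1, 31.5 and 24.8 CPM in DSCG and 18.8, 16.0 and 16.8 CPM in blank wounds. All DSCG values were above all blank values, and the log2 fold change was 0.67 ± 0.19 (0.26 to 1.08, edgeR adjusted p = 0.999). B4galnt4, a glycosyltransferase (chromosome 7, 141061104 to 141072400), measured 15.6, 11.8 and 10.3 CPM against 7.33, 7.13 and 7.07 CPM. The blank values were nearly equal, the groups did not overlap, and the log2 fold change was 0.81 ± 0.24. Shmt2, the mitochondrial serine hydroxymethyltransferase of one-carbon metabolism (chromosome 10, 127517123 to 127522444), measured 84.1, 121 and 82.9 CPM against 68.6, 58.7 and 66.6 CPM, at 0.57 ± 0.19. Its groups did not overlap, and DSCG replicate 2 was the highest.

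The remaining 9 genes named on that side had smaller or noisier estimates. Calcb, which encodes the neuropeptide beta-CGRP, measured 2.23, 3.52 and 1.59 CPM in DSCG and 0.941, 0.707 and 1.83 CPM in blank wounds, at a log2 fold change of 1.27 ± 0.46. Blank replicate 3 lay inside the DSCG range there, on 7 reads. Avp, the vasopressin gene, measured 0.557, 2.66 and 1.59 CPM against 0.627, 0.146 and 0.524 CPM, at 1.98 ± 0.71, and overlapped. Values of log2 fold change for the others were 0.91 for Atp13a4, a P-type ATPase, 1.08 for Tex40, 0.69 for Ankle1, an endonuclease, 0.89 for Adarb2, an RNA-editing family member, 0.43 for Tbrg4, a mitochondrial RNA-binding protein, 0.56 for Aaas, a nuclear pore protein, and 0.53 for Ifrd2. Of these 7, Adarb2 alone had overlapping groups, but they were chosen by p, which favours groups without overlap. Over all genes tested, 1.91% were higher without overlap.

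Genes of mast cells, the cells that a stabilizer acts on, overlapped between the groups in all members tested but Mrgprb2. Over all genes tested, 3.68% had groups without overlap. For 4 main proteases the 95% interval excluded a 2-fold difference in either direction when all libraries were used. Of the proteases tested, that held for 3 in the fit of the 6 libraries alone, for 1 or 2 with any 1 library left out, and for 0 with both libraries short of long transcripts left out. Mcpt4, the main chymase of connective-tissue mast cells (chromosome 14, 56059629 to 56062313), measured 67.5, 88.8 and 38.3 CPM in DSCG and 66.9, 59.9 and 61.8 CPM in blank wounds. DSCG replicates 1 and 2 were above and DSCG replicate 3 below all 3 blank values. The log2 fold change was 0.04 ± 0.39, which allows a rise of up to 1.87-fold and a fall of up to 1.76-fold, and its sign turned to -0.01 with total-count scaling. Cma1, another chymase (chromosome 14, 55941451 to 55944675), measured 49.1, 44.5 and 20 CPM against 38.7, 39.3 and 36.9 CPM, with DSCG replicate 3 again the lowest. Its log2 fold change was -0.02 ± 0.36 (up to 1.70-fold higher or 1.74-fold lower). Carboxypeptidase A3 (Cpa3, chromosome 3, 20215620 to 20242181) measured 22.6, 17.4 and 15.7 CPM against 23.8, 22.0 and 17.3 CPM, at -0.19 ± 0.31 (up to 1.41-fold higher or 1.83-fold lower). Tryptase beta 2 (Tpsb2, chromosome 17, 25366305 to 25369098) measured 69.6, 81.4 and 32.0 CPM against 60.8, 49.5 and 45.9 CPM, with DSCG on both sides of blank, at 0.23 ± 0.33 (up to 1.94-fold higher or 1.42-fold lower). In bulk tissue, fewer cells of a type and less RNA per cell cannot be told apart, and this holds for every cell type named here. The chymase and tryptase genes lie in clusters of close relatives, so how reads were shared between them is uncertain.

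Of the 13 protease genes listed, 12 were tested, and none passed. By estimate 7 were higher and 5 lower, with a median log2 fold change of 0.13 beside 0.00 over all genes tested. That median turned to -0.13 with both short-transcript libraries left out, -0.11 without DSCG replicate 2, -0.08 with the length covariate (each library's trend with exon length) and -0.05 when libraries were weighted by quality. The 0 members without overlap stand beside 3.68% of all genes. Members under 1 CPM were imprecise. Prss34, a protease of basophils and mast cells, was counted on 22, 29 and 6 reads in DSCG and 11, 13 and 1 in blank wounds, and Mcpt2 on 10, 5 and 3 against 6, 20 and 2 reads. Their log2 fold changes of 0.83 ± 0.69 and -1.06 ± 0.90 had opposite signs and intervals that spanned both.

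Receptors and mediators also overlapped, all but 1. Kit, the receptor for stem cell factor that mast cells need and melanocytes also carry, measured 12.3, 17.1 and 27.9 CPM in DSCG and 21.5, 13.1 and 7.07 CPM in blank wounds. The groups overlapped, with the highest value in DSCG replicate 3 and the lowest in the shallow blank replicate 3, at 0.42 ± 0.41 (up to 2.49-fold higher or 1.38-fold lower). Gpr35, the receptor that cromoglycate is known to activate, measured 18.6, 8.09 and 7.92 CPM against 14.0, 8.59 and 11.5 CPM. Its replicates overlapped fully, at 0.02 ± 0.42 (up to 1.93-fold higher or 1.88-fold lower), and total-count scaling put it at -0.02. Fcer1a, the alpha chain of the IgE receptor, measured 3.60, 1.87 and 1.06 CPM against 2.84, 1.95 and 3.14 CPM, at -0.25 ± 0.45. Ms4a2, the beta chain, measured 1.34, 0.549 and 0.847 CPM against 1.45, 1.14 and 1.05 CPM, at -0.45 ± 0.51 (up to 1.58-fold higher or 2.95-fold lower). Both chains overlapped between the groups.

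Mrgprb2, the mast cell receptor for basic secretagogues and neuropeptides, was the 1 member of the list whose groups did not overlap. It measured 0.861, 0.791 and 0.783 CPM in DSCG, on 34, 36 and 37 reads, and 1.16, 1.04 and 1.57 CPM in blank wounds, on 59, 50 and 6 reads. Its log2 fold change was -0.56 ± 0.34 (95% interval -1.31 to 0.20, edgeR adjusted p = 0.999), so it did not pass. A count of 1 among 29 tested stands beside 3.68% of all genes without overlap. Of the 29 receptor and mediator genes tested, 9 were higher and 20 lower by estimate, with a median of -0.07. The median turned to 0.01 without DSCG replicate 3 and to 0.04 without blank replicate 1. The interval excluded a 2-fold rise in 21 and a 2-fold fall in 15 of them, and in 22 and 9 without DSCG replicate 1.

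Histamine synthesis could not be pinned down. Hdc, the histidine decarboxylase that makes histamine in mast cells, basophils and neutrophils, measured 45.9, 10.7 and 3.68 CPM in DSCG and 40.2, 8.48 and 7.60 CPM in blank wounds. Replicate 1 was the highest of each group, and the spread within a group exceeded the difference between groups. At 0.06 ± 1.13, a rise of up to 5.78-fold or a fall of up to 5.33-fold was allowed. Of 21 genes of histamine and neuropeptide signalling, 15 were tested, 4 higher and 11 lower by estimate, with a median of -0.33. Tacr1, the substance P receptor, measured 3.01, 3.16 and 3.79 CPM against 4.96, 5.88 and 2.62 CPM, at -0.48 ± 0.41. Calcrl, the receptor chain for CGRP and adrenomedullin, measured 8.16, 3.30 and 7.28 CPM against 12.9, 11.7 and 7.07 CPM, at -0.78 ± 0.41. Both overlapped. The lowest Calcrl value of each group came from DSCG replicate 2 and blank replicate 3, the libraries short of long transcripts, and the lowest Tacr1 value from blank replicate 3. Tac1, which encodes substance P itself, was counted on 2, 6 and 0 reads in DSCG and 2, 0 and 0 in blank wounds and was not tested.

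**Figure D3:**
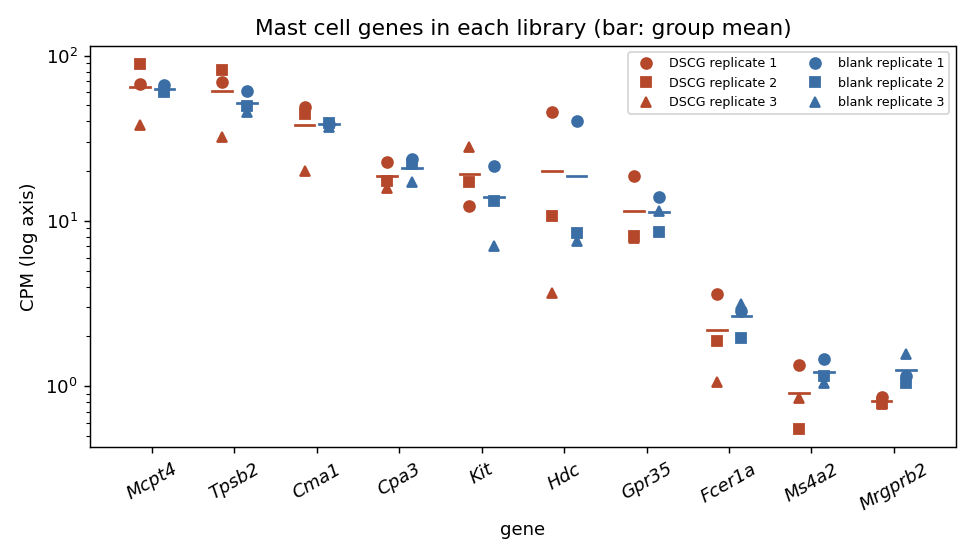
Each symbol is 1 library, in CPM on a log axis, for 10 mast cell genes, with red for DSCG and blue for blank, and bars at the group means. In every gene but Mrgprb2 the groups overlap, and DSCG replicate 3 (red triangle) is the lowest of the 6 libraries for Mcpt4, Tpsb2, Cma1, Cpa3, Hdc, Gpr35, Fcer1a and Mrgprb2.

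Neutrophil genes differed more between the DSCG wounds than between the groups. The mean log2 CPM over the 17 neutrophil genes tested was 3.73, 2.51 and 0.35 in DSCG and 3.14, 2.03 and 2.38 in blank wounds. DSCG replicate 1 was the highest of the 6 libraries and DSCG replicate 3 the lowest, a span of 10.5-fold against 2.17-fold among the blank wounds. S100a8 and S100a9, the calprotectin subunits that fill neutrophil cytosol and are also made by wound keratinocytes, are named here although they were chosen after their values were seen. S100a8 measured 1225, 265 and 8.74 CPM in DSCG and 259, 157 and 311 CPM in blank wounds, and S100a9 2352, 514 and 10.5 CPM against 508, 303 and 532 CPM. DSCG replicate 1 was far above and DSCG replicate 3 far below all blank values in both. The log2 fold change of S100a8 was 1.04 ± 1.02 and that of S100a9 1.10 ± 1.07, and limma-voom, which averages log values, put them at -0.70 and -0.89. Lcn2, lipocalin 2, was also chosen after its values were seen. It was 62.3 ± 51.8 CPM (mean ± SD, n = 3) in DSCG and 68.3 ± 26.3 CPM in blank wounds. DSCG replicates 1, 2 and 3 measured 118, 52.7 and 16.0 CPM, on both sides of the blank values.

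Mmp8, the neutrophil collagenase, was the 1 neutrophil gene of 17 tested without overlap, beside 3.68% of all genes. It measured 1.60, 1.01 and 1.12 CPM in DSCG and 3.72, 3.01 and 2.88 CPM in blank wounds. The values were close together within both groups, though blank replicate 3 rested on 11 reads. The log2 fold change was -1.38 ± 0.54 (-2.57 to -0.19, edgeR adjusted p = 0.999). Mmp9, the gelatinase of neutrophils, macrophages and keratinocytes, measured 101, 83.7 and 16.3 CPM against 88.0, 97.7 and 108 CPM, and only DSCG replicate 3 stood apart, at -0.55 ± 0.54. The estimates of the list were split, with 8 higher and 9 lower and a median of -0.12. That median was -0.98 without DSCG replicate 1, 0.51 without DSCG replicate 3 and 0.65 without blank replicate 1. The interval excluded a 2-fold fall in 1 of the 17 genes and a 2-fold rise in 3, and without DSCG replicate 3 a fall was excluded in 8. A neutrophil difference of several-fold was thus within what the libraries allow.

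The early cytokines varied widely within both groups. Il1b measured 72.4, 12.4 and 1.52 CPM in DSCG and 98.6, 4.55 and 8.65 CPM in blank wounds. Replicate 1 of each group was several-fold above the rest, and the interval of the log2 fold change of -0.40 ± 1.45 allowed a rise of up to 6.88-fold and a fall of up to 11.9-fold. Cxcl2, a chemokine that draws neutrophils, measured 74.3, 4.72 and 0.423 CPM against 65.5, 2.79 and 5.50 CPM, with replicate 1 of each group again far above the rest, at 0.07 ± 1.77 (up to 15.4-fold higher or 14.0-fold lower). Cxcl1, its relative, measured 1.70, 3.89 and 0.212 CPM against 4.31, 2.06 and 1.05 CPM, at -0.48 ± 0.86. None of these groups separated.

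Tnf was steadier, at 7.85, 2.94 and 1.42 CPM in DSCG and 4.14, 3.26 and 5.24 CPM in blank wounds. DSCG values lay on both sides of blank, and the log2 fold change of -0.01 ± 0.63 allowed up to 2.57-fold higher or 2.62-fold lower. Il6 measured 0.253, 2.51 and 0.127 CPM against 0.843, 0.187 and 0 CPM, where the 0 of blank replicate 3 allows up to 0.786 CPM. The estimate of 1.10 ± 1.16 rested on DSCG replicate 2. Of 27 cytokine and chemokine genes tested, 9 were higher and 18 lower by estimate, with a median of -0.21 that turned to 0.19 without DSCG replicate 3 and to 0.15 without blank replicate 1. Tslp, an epithelial cytokine of type 2 responses, had the smallest p of the list, at 1.47, 1.56 and 0.402 CPM against 1.31, 2.18 and 7.07 CPM (log2 fold change -1.45 ± 0.66). Blank replicate 1 lay among the DSCG values, and blank replicate 3 was the highest, on 27 reads. Ccl20 measured 0.608, 2.07 and 2.73 CPM against 1.45, 5.55 and 6.03 CPM, at -1.21 ± 0.65, and overlapped too.

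General macrophage genes had narrower intervals than neutrophil and cytokine genes. Their median interval reached 0.84 log2 units either side, beside 0.72 over all genes tested. The mean log2 CPM of 18 general macrophage genes was 6.44, 5.93 and 5.38 in DSCG and 6.20, 6.03 and 5.93 in blank wounds, so DSCG replicates 1 and 3 lay on either side of the blank values. The median log2 fold change was -0.10, and the interval lay within 2-fold in 9 genes and within 4-fold in all 18. The median turned to 0.16 without DSCG replicate 3, and the 9 genes within 2-fold became 3 without DSCG replicate 1, 3 without blank replicate 1, 5 without DSCG replicate 2 and 2 with both short-transcript libraries left out.

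Genes linked to classical (M1) and alternative (M2) activation of macrophages both leaned lower by estimate, with none passing. In the M1 list 14 of 16 genes were lower, at a median of -0.27, and in the M2 list 15 of 19, at -0.35. The M1 median turned to 0.07 without DSCG replicate 3 and to 0.02 without blank replicate 1. Nos2, the inducible nitric oxide synthase, measured 2.31, 1.01 and 1.02 CPM in DSCG and 7.80, 2.04 and 0.262 CPM in blank wounds, where blank replicates 1 and 3 bracket all DSCG values. Its log2 fold change was -1.39 ± 1.49. Arg1, arginase 1, measured 181, 65.9 and 49.8 CPM against 92.0, 76.9 and 79.4 CPM, and DSCG replicate 1 alone exceeded the blank values, at 0.25 ± 0.49. Mrc1, the mannose receptor of resident macrophages, measured 94.1, 68.1 and 76.3 CPM against 100.5, 134 and 68.9 CPM, at -0.35 ± 0.35 (up to 1.34-fold higher or 2.17-fold lower). Cd163, the haemoglobin scavenger receptor, measured 80.8, 36.0 and 59.1 CPM against 49.9, 147 and 41.4 CPM, at -0.45 ± 0.45, and blank replicate 2 was its only high value.

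Lymphocyte and antigen-presentation genes also overlapped, with 1 exception. Gzmb, granzyme B of cytotoxic lymphocytes, was the 1 gene of 17 in the T and NK cell list without overlap. Over all genes tested that share was 3.68%. Gzmb measured 1.55, 0.835 and 1.31 CPM in DSCG and 2.37, 1.85 and 2.10 CPM in blank wounds, with 8 reads in blank replicate 3. The log2 fold change was -0.78 ± 0.32 (edgeR adjusted p = 0.999). Cd8a measured 1.32, 0.637 and 0.551 CPM against 1.27, 1.04 and 2.36 CPM, at -0.77 ± 0.48, and overlapped. The list as a whole had a median of -0.05, with 7 genes higher and 10 lower. In the MHC class II list 13 of 14 genes were lower by estimate, at a median of only -0.19, which turned to 0.02 without DSCG replicate 3 and to 0.06 with both short-transcript libraries left out. Cd207, the langerin of Langerhans cells, measured 4.96, 4.07 and 6.63 CPM against 3.1, 6.51 and 14.7 CPM, at -0.56 ± 0.61. Interferon-response genes were split 9 higher and 9 lower, at a median of 0.00. The 6 B and plasma cell genes tested had a median log2 fold change of 0.17 while their mean log2 CPM was -0.19 in DSCG relative to blank, so their direction depended on the measure. Complement genes were lower by estimate in 12 of 16, at a median of -0.11.

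**Figure D4:**
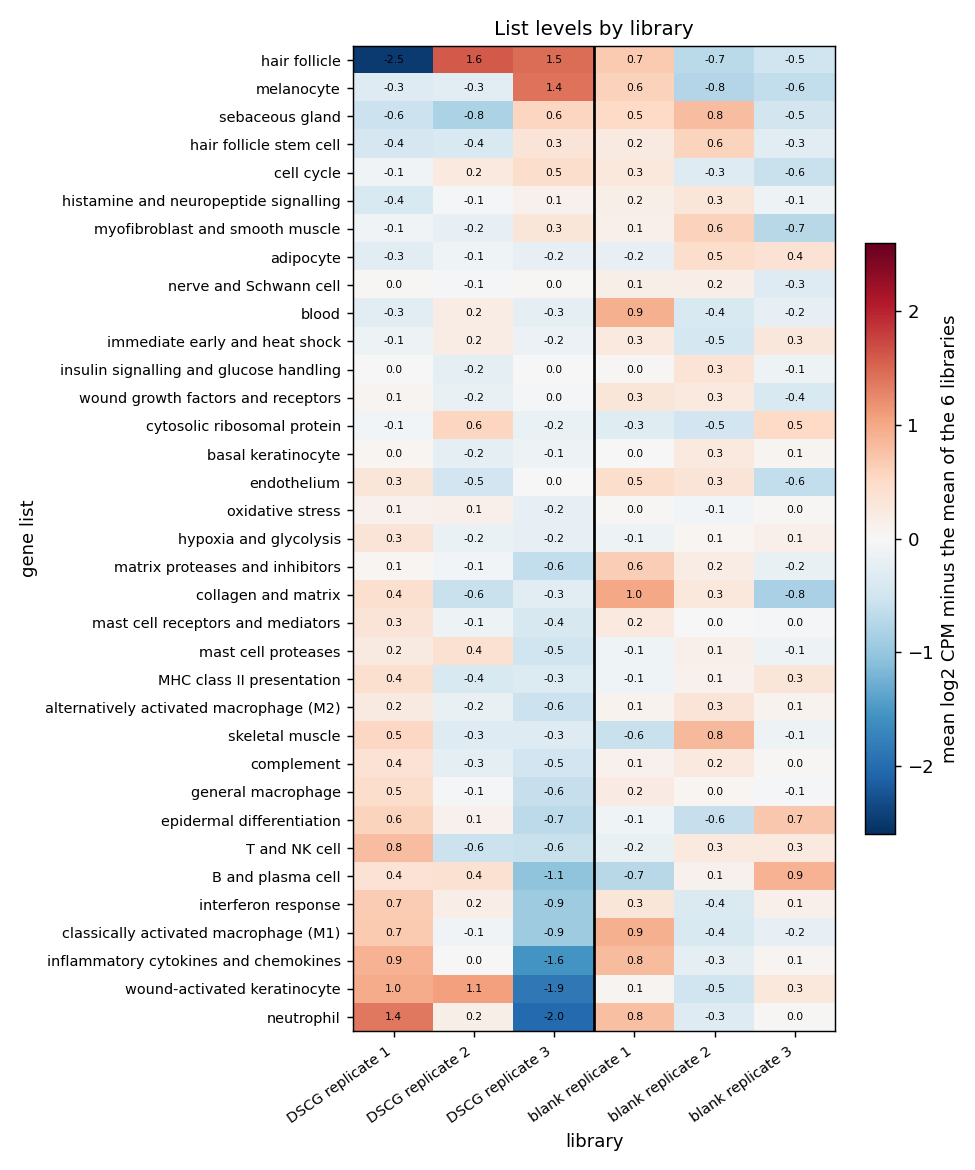
Rows are the 35 gene lists and columns the 6 libraries. The colour and the number in a cell give the list's mean log2 CPM in that library minus its mean over the 6 libraries. The strongest colours lie within the DSCG group, where replicate 1 has low hair follicle and high neutrophil genes and replicate 3 the reverse, and no row splits the 3 DSCG from the 3 blank columns.

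Keratinocyte genes of the wound edge showed the same contrast between DSCG wounds. The 20 genes of activated keratinocytes had a mean log2 CPM of 6.32, 6.42 and 3.51 in DSCG and 5.45, 4.85 and 5.64 in blank wounds, so DSCG replicates 1 and 2 were above and replicate 3 below every blank wound. By estimate 15 genes were higher, at a median log2 fold change of 0.85, while the difference in mean log2 CPM was 0.10. A fitted fold change follows mean counts, in which a single high library and the deeper libraries weigh more. Krt6a, a keratin induced at wound edges and also made in the hair follicle, measured 1795, 3411 and 926 CPM against 1633, 1690.2 and 1465 CPM. The blank values were nearly equal and the DSCG values lay on both sides, at 0.36 ± 0.41 (up to 2.40-fold higher or 1.46-fold lower). Defb3, a beta-defensin of inflamed epithelium, measured 8.38, 5.47 and 0.106 CPM against 1.24, 0.707 and 0.262 CPM, at 2.40 ± 1.05 (edgeR adjusted p = 0.999). Its DSCG replicate 3 was below all blank values, on 5 reads, and blank replicate 3 rested on 1 read. Sprr2h, a cornified-envelope precursor, measured 149, 145 and 26.6 CPM against 55.8, 27.3 and 50.3 CPM, at 1.27 ± 0.57, and Sprr2b, its relative, 377, 9.43 and 0.783 CPM against 29.7, 28.9 and 17.3 CPM, at 2.34 ± 1.32. DSCG replicate 1 made the Sprr2b estimate, DSCG replicate 3 was below all blank wounds in both, and these near-identical genes can share reads.

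Among genes of epidermal differentiation, Tgm3, the transglutaminase that crosslinks the cornified envelope and the inner root sheath, did not overlap. It measured 228, 142 and 119.6 CPM in DSCG and 96.4, 32.9 and 81.5 CPM in blank wounds. Its log2 fold change was 1.22 ± 0.47 (0.20 to 2.24, edgeR adjusted p = 0.999). It was the 1 member of 23 tested without overlap, beside 3.68% of all genes. Lce3c, a late cornified-envelope gene of disturbed epidermis, measured 42.2, 65.2 and 4.32 CPM against 16.8, 4.12 and 12.8 CPM, at 1.74 ± 0.77, with DSCG replicate 3 among the low blank values. The 23 genes had a median of 0.04, 14 higher and 9 lower. Basal keratinocyte genes were lower in 9 of 13, at a median of -0.28. Krt15, a keratin of the basal layer and of bulge stem cells, measured 264, 523 and 738 CPM against 487, 1471 and 1603 CPM, and only blank replicate 1 lay inside the DSCG range, at -1.22 ± 0.53. Itga3, the integrin alpha 3 chain of the basal layer, went the other way, with 90.7, 203 and 125 CPM against 103, 76.1 and 76.2 CPM, at 0.71 ± 0.31, and overlapped.

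Hair follicle genes had the highest median of the 35 lists and the widest spread within a group. By estimate 36 of 37 were higher in DSCG, at a median log2 fold change of 1.09, which was 0.33 by limma-voom and turned to -0.27 when libraries were weighted by quality. None passed and none was without overlap, beside 3.68% of all genes. The mean log2 CPM was 4.32, 8.39 and 8.26 in DSCG and 7.48, 6.10 and 6.28 in blank wounds, so DSCG replicate 1 was below and DSCG replicates 2 and 3 above all blank wounds, a span of 16.8-fold. Msx2, a transcription factor of hair matrix and other skin cells, measured 13.1, 161 and 113 CPM against 67.4, 23.6 and 38.3 CPM, at 1.15 ± 0.71. Dlx3, its partner in hair shaft differentiation, measured 64.4, 422 and 409 CPM against 242, 79.7 and 129 CPM, at 0.99 ± 0.63. Both had the same order of DSCG libraries. Krtap7-1, a keratin-associated protein of the hair shaft, measured 17.0, 1037 and 599.5 CPM against 391, 135 and 187 CPM, at 1.21 ± 1.26. Krt71, a keratin of the inner root sheath chosen after its values were seen, was 8712 ± 6948 CPM (mean ± SD, n = 3) in DSCG and 3694 ± 2625 CPM in blank wounds. The interval excluded a 2-fold rise in 0 of 37 hair follicle genes, and a 2-fold fall in 21, a count that ran from 4 without blank replicate 2 or 3 to 35 without DSCG replicate 1 and was 2 with both short-transcript libraries left out. Follicles grow and rest in cycles, and neither the hair cycle stage of the mice nor the share of unwounded skin in each sample is given by the labels. Their part in these values was not tested.

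Genes of follicle stem cells had a median on the lower side. Of 13, 10 were lower by estimate, at a median of -0.41. Fst, follistatin, measured 18.8, 26.9 and 17.6 CPM in DSCG and 22.0, 37.2 and 29.1 CPM in blank wounds, at -0.48 ± 0.31, and overlapped. Melanocyte genes were higher in 13 of 14, at a median of 0.69, which turned to -0.23 without DSCG replicate 3, the library with the highest level. Slc45a2, a melanosome transporter, measured 1.70, 1.25 and 7.60 CPM against 3.41, 0.769 and 0.786 CPM, at 0.96 ± 0.80. Its values followed the list, with DSCG replicate 3 and blank replicate 1 high.

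Sebaceous gland and fat genes stood on the lower side. Of 15 sebaceous genes, 13 were lower by estimate, at a median of -0.60 that ranged from -1.35 without DSCG replicate 3 to -0.30 without blank replicate 2. Dgat2l6, an acyltransferase of the gland, measured 2.94, 3.38 and 5.25 CPM in DSCG and 5.29, 10.4 and 8.65 CPM in blank wounds. The groups touched without overlap, at -1.06 ± 0.48 (edgeR adjusted p = 0.999). Scd3, a stearoyl-CoA desaturase of sebocytes, measured 9.02, 6.86 and 22.4 CPM against 25.2, 38.5 and 19.4 CPM, at -1.13 ± 0.59. It overlapped, and close relatives of the gene can share its reads. Of 19 adipocyte genes, 16 were lower, at a median of -0.51, and 2 did not overlap, both lower, beside 1.77% of all genes. Thrsp, a lipogenic nuclear protein, was 1 of those, with 12.6, 15.6 and 10.5 CPM against 16.6, 28.4 and 26.2 CPM, at -0.88 ± 0.49. The adipocyte median kept its sign with each library left out, from -0.66 to -0.29. Adipoq, the fat hormone adiponectin, chosen after its values were seen, measured 32.1, 24.9 and 34.7 CPM against 33.5, 57.2 and 70.7 CPM, at -0.81 ± 0.56. Blank replicates 2 and 3 had the highest mean level of the adipocyte list and blank replicate 1 was level with DSCG.

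Collagen and matrix genes were all lower by estimate, and none passed. The 23 log2 fold changes ran from -0.83 to -0.12, with a median of -0.41 that turned to 0.09 without blank replicate 1. Col1a1, a chain of type I collagen, measured 23300.1, 7634 and 11474 CPM in DSCG and 29623, 16960.0 and 7255 CPM in blank wounds. Replicate 1 of each group was the highest, and the log2 fold change of -0.34 ± 0.78 allowed up to 2.57-fold higher or 4.15-fold lower. Col3a1, of type III collagen, measured 16092, 3929.7 and 7368 CPM against 21323, 10348 and 4275 CPM, in the same order, at -0.39 ± 0.76. The lowest value of each group came from DSCG replicate 2 and blank replicate 3, the libraries short of long transcripts. Over the whole list their mean log2 CPM was the lowest of each group as well (9.70, 8.69 and 8.99 in DSCG, 10.28, 9.54 and 8.43 in blank wounds). With both libraries left out the median was -0.55, and with each library's length trend as a covariate it was -0.14. What part transcript length had in the collagen values was not tested. Lum, lumican, measured 309.7, 149 and 242 CPM against 421, 391 and 209 CPM, at -0.54 ± 0.45, and overlapped.

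Proteases that remodel matrix and their inhibitors were lower by estimate in 19 of 20, at a median of -0.35. The interval excluded a 2-fold rise in 17 of them and a 2-fold fall in 2. Without blank replicate 1 the 2-fold rise was excluded in 9 and the fall in 5. Mmp8 (above) and Mmp11, the stromelysin 3 gene, did not overlap, both lower, beside 1.77% of all genes without overlap on that side. Mmp13, the interstitial collagenase of wound fibroblasts and keratinocytes, measured 21.7, 14.8 and 4.47 CPM in DSCG and 47.9, 11.5 and 24.9 CPM in blank wounds, at -1.05 ± 0.60. It overlapped, and its lowest value was that of DSCG replicate 3. Acta2, the smooth muscle actin of myofibroblasts and vessels, measured 177, 265 and 261 CPM against 251, 235 and 111 CPM, at 0.23 ± 0.37 (up to 2.05-fold higher or 1.48-fold lower). The 13 contractile genes had a median of 0.03.

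Of the vessel and growth factor genes tested, only Pdgfb, a platelet-derived growth factor chain, had groups without overlap, at a log2 fold change of -0.26 ± 0.20. Over all genes tested, the share without overlap was 3.68%. Pecam1, the endothelial adhesion molecule CD31, measured 79.1, 51.8 and 58.4 CPM in DSCG and 82.8, 66.1 and 33.0 CPM in blank wounds. The groups overlapped fully, at 0.05 ± 0.45 (up to 2.04-fold higher or 1.91-fold lower). The 17 endothelial genes had a median of -0.05, and DSCG replicate 2 and blank replicate 3 had the lowest levels here as well. Vegfa, the main vessel growth factor, measured 48.2, 25.3 and 32.8 CPM against 37.8, 46.7 and 37.7 CPM, at -0.21 ± 0.45 (up to 1.72-fold higher or 2.29-fold lower). Of 30 growth factors and receptors, 21 were lower by estimate, at a median of -0.17, and the interval excluded a 2-fold rise in 25. Hgf, the hepatocyte growth factor of fibroblasts, measured 2.0, 0.549 and 0.910 CPM against 3.76, 2.6 and 1.05 CPM, at -1.20 ± 0.66. Tgfb2 measured 12.3, 10.5 and 9.78 CPM against 15.5, 21.2 and 12.1 CPM, at -0.60 ± 0.31. In both, blank replicate 3 lay among the DSCG values.

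Markers of other tissues in the sample were uneven. Skeletal muscle genes, from the muscle sheet under mouse skin, had a mean log2 CPM of 8.28, 7.41 and 7.42 in DSCG and 7.16, 8.60 and 7.62 in blank wounds. Myh4, a fast myosin heavy chain, measured 414, 16.1 and 141 CPM against 40.0, 179.7 and 15.7 CPM, at 1.27 ± 0.95, so it varied over 10-fold in each group. Nerve and Schwann cell genes were even, with a median of 0.08 over 14 genes. Of 14 blood genes only 6 were tested, at a median of -0.33. The 4 haemoglobin genes are listed at 0 in all 6 libraries.

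Cell cycle genes were the list with the most uniform direction on the higher side. All 20 were higher in DSCG by estimate, from 0.15 to 0.79, with a median of 0.36, and none passed. Leaving out 1 library at a time kept the median positive, from 0.15 without blank replicate 3 to 0.61 without blank replicate 1. The mean log2 CPM was 4.67, 5.01 and 5.22 in DSCG and 5.04, 4.43 and 4.19 in blank wounds, with blank replicate 1 inside the DSCG range. Plk1, a mitotic kinase, measured 24.3, 40.5 and 27.6 CPM against 27.2, 16.3 and 11.5 CPM, at 0.73 ± 0.29 (0.10 to 1.35, edgeR adjusted p = 0.999). Birc5, survivin of the dividing cell, measured 16.8, 34.9 and 19.1 CPM against 17.5, 9.90 and 13.6 CPM, at 0.79 ± 0.37. In both, blank replicates 2 and 3 were the low values. Mki67, the Ki-67 antigen, chosen after its values were seen, measured 69.1, 94.6 and 136 CPM against 117, 66.6 and 48.7 CPM, at 0.36 ± 0.31. The interval excluded a 2-fold fall in all 20 genes and a 2-fold rise in 12, which became 3 without blank replicate 1 and 4 without DSCG replicate 1, while the 2-fold fall stayed excluded in 20 in every setting.

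Ribosomal protein genes were higher by estimate in 67 of 76, at a median of 0.20, and turned to -0.10 without DSCG replicate 2 and to -0.02 without blank replicate 2. These are short transcripts, and their mean log2 CPM was the highest in DSCG replicate 2 and blank replicate 3 (8.83, 9.48 and 8.73 in DSCG, 8.60, 8.41 and 9.42 in blank wounds), the libraries short of long ones. With the length covariate the median was 0.10. What part transcript length had in the ribosomal values was not tested.

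Hypoxia, glycolysis and oxidative stress genes were among the more tightly bounded. Of 20 hypoxia and glycolysis genes, 14 had intervals within 2-fold, and all estimates lay between -0.23 and 0.31. Ldha, lactate dehydrogenase A, measured 898, 880.1 and 545 CPM in DSCG and 583, 615 and 789 CPM in blank wounds, at 0.23 ± 0.25. Oxidative stress genes had a median of 0.05 over 19 genes. Nqo1, a quinone reductase driven by Nrf2, measured 10.3, 6.75 and 6.69 CPM against 9.47, 12.5 and 14.4 CPM, at -0.60 ± 0.26, and Slc7a11, a cystine transporter of the same programme, 60.3, 20.2 and 9.99 CPM against 14.9, 14.5 and 9.43 CPM, at 1.19 ± 0.64. They had opposite signs and overlapped. Insulin signalling and glucose handling genes, of interest in a diabetic wound, were lower by estimate in 14 of 20, at a median of -0.23. Their intervals lay within 2-fold in 7 of the 20, beside 54.6% of all genes. Txnip, a glucose-responsive inhibitor of thioredoxin, measured 204, 171 and 209.6 CPM against 173, 319.8 and 366 CPM, at -0.55 ± 0.28. Blank replicate 1 was inside its DSCG range.

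Across the 35 lists, 0 had a mean level that separated the groups, and 19 had a wider range in DSCG than in blank wounds. The difference in mean log2 CPM exceeded the pooled SD of the replicates in 5 lists: cell cycle higher, and M2 macrophage, matrix protease and inhibitor, basal keratinocyte and adipocyte genes lower. How many lists would reach that mark with no difference between the groups was not tested, so these 5 are not singled out by it. Medians were positive in 12 lists and negative in 23, and in 25 of the 35 lists the sign turned in at least 1 of the 16 other settings. The 10 that kept it were activated keratinocyte and cell cycle genes, higher, and M2 macrophage, matrix protease and inhibitor, growth factor, basal keratinocyte, follicle stem cell, sebaceous, adipocyte and insulin genes, lower. Genes of a list share the same 6 wounds and are not replicates of each other. Of 671 listed genes tested, 11 (1.64%, beside 3.68% of all genes) had groups without overlap, Tgm3 higher and 10 lower. Beside Mrgprb2, Mmp8, Gzmb, Dgat2l6 and Thrsp, these were Cidec, Il12b, Mmp11, Pdgfb and Sostdc1, which were named after their values were seen. Over all genes, the SD of log2 CPM was larger in DSCG than in blank wounds for 9476 (58.3%), at a median of 0.417 against 0.359. Bounds were widest for neutrophil genes, where the median interval reached 2.19 log2 units either side, and for hair follicle genes (2.09). They were narrowest for cell cycle genes (0.63), beside 0.72 over all genes tested.

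**Figure D5:**
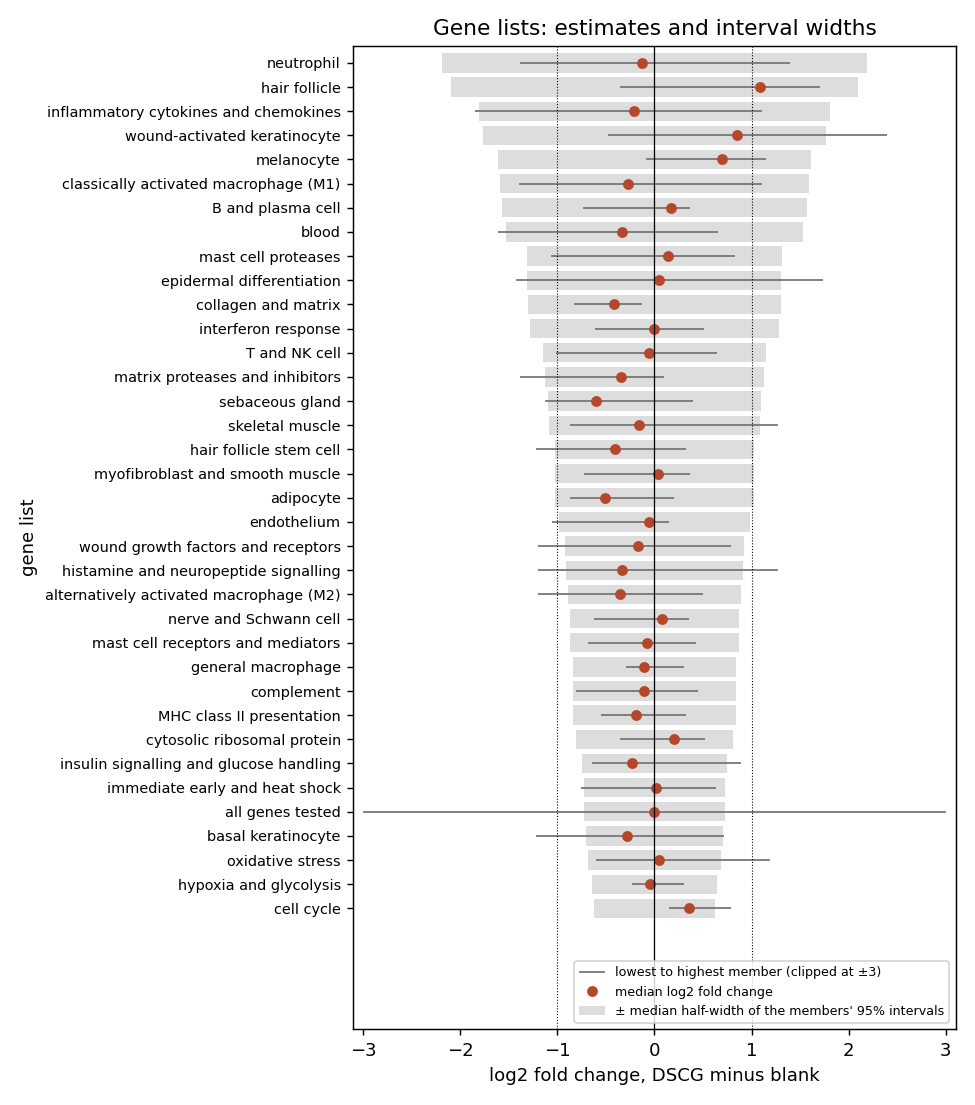
For each gene list, the point is the median log2 fold change of DSCG minus blank, the thin line runs from the lowest to the highest member, and the grey bar shows the median reach of the members' 95% intervals either side of 0. Dotted lines mark 2-fold. Every median but that of the hair follicle list lies within 2-fold, and the grey bars pass the 2-fold lines from the neutrophil list down to the hair follicle stem cell and adipocyte lists.

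The size of this comparison can be set beside the others of the same model, which share the blank or the DSCG libraries with it and are not independent of it. The pre-MCS-01 and post-MCS-01 wounds each had 0 genes called against blank, with 1178 (7.24%) and 1521 (9.35%) at an unadjusted p under 0.05, where DSCG against blank had 167 (1.03%). DSCG against pre-MCS-01 also had 0 genes called, with 384 (2.36%) at an unadjusted p under 0.05. DSCG against post-MCS-01 had 172 of 16267 genes called, with 1846 (11.3%) at an unadjusted p under 0.05. The DSCG libraries and the estimate of the spread were the same, but the shallow blank replicate 3 entered neither group mean. The median reach of the intervals was alike in these comparisons, 0.72 log2 units for all 3 against blank.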

How the data were processed

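RNA of 12 back-skin wounds was sequenced, and 6 libraries were compared here. Per the labels' protocols, a miRNeasy kit gave the total RNA and a TruSeq RNA kit the libraries. The authors deposited whole-number read counts per gene symbol, not normalized, with 24062 genes and 5 lines of counting summaries for each library. The summary lines were left out, of which reads on no gene made up 5.28% to 8.25% of the reads on 1 gene, several or none in the 6 libraries. FastQC, TopHat2, Bowtie2, HTSeq, limma and the build mm10 are named, per the submitters' processing notes. Versions, strand setting and annotation are not given in the sources used here. Reads from overlapping genes, antisense partners and near-identical copies are therefore uncertain.

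Counts were analysed in R 4.3.3 with edgeR 4.0.16, fitting the 12 libraries together with 1 mean for each treatment label. filterByExpr left 16267 genes, TMM scaled the libraries, and the quasi-likelihood test (glmQLFit, glmQLFTest, two-sided) compared DSCG with blank, adjusted by Benjamini-Hochberg over all genes tested at a threshold of 0.05. An interval is the log2 fold change ± the 95% t quantile times its standard error. The model pools the spread across genes because 3 against 3 single values cannot give an exact permutation p below 0.1. Fold changes are given ± SE and CPM ± SD. Log2 CPM used a prior count of 2. Other settings used limma 3.58.1 and DESeq2 1.42.0. Positions and exon lengths come from GENCODE M21 on GRCm38, matched by symbol for 95.3% of genes tested. The steps were tested on simulated data.

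Genes named are the 12 higher and the 12 lower with the smallest p and a mean of at least 1 CPM, the 2 with the smallest p of each list, 28 fixed genes, and the 5 with the narrowest and the 5 with the widest interval at 10 CPM or more. Predicted genes are not named, and 2 genes that meet the rule are not reported here. Of these, the text describes those that bear on each list. Beyond these rules, S100a8, S100a9, Lcn2, Tchh, Krt71, Pmel, Mki67 and others marked in the text were added after their values were seen. The comparison, the 35 gene lists and the genes were chosen with earlier results of these data known. For 4 list genes the files use an older symbol.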

Additional observations from a re-analysis of the deposited data

How the results depend on the processing

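No paired analysis was possible because every mouse number differs and replicates are numbered in record order. With DESeq2, RLE or total-count scaling, all genes kept regardless of count, limma-voom (with and without quality weights), edgeR's newer fit, the 6 libraries alone, an exon-length covariate, both short-transcript libraries left out, or any 1 library left out, 0 genes were called. Genes with an interval within 2-fold numbered 6908 to 10657. Genes at an unadjusted p under 0.05 numbered from 61 without blank replicate 2 to 749 without DSCG replicate 1, and the smallest adjusted p was 0.0635, by DESeq2. Lists with a positive median ranged from 8 to 21 with 1 library left out, the 21 without DSCG replicate 3. With both short-transcript libraries left out the sign turned for Acta2 (-0.15), Cd207 (0.27), H2-DMa (0.060), Il6 (-1.44), Krt6a (-0.28), Krtap6-5 (-0.28), Mcpt4 (-0.25), Pecam1 (-0.11), Pi4kb (0.00065), Tnf (0.34) and Tpsb2 (-0.11). With the exon-length covariate the sign turned for Il1b (0.13), Mcpt4 (-0.081) and Tnf (0.10). By limma-voom the sign turned for Cxcl2 (-1.27), Gpr35 (-0.082), Hdc (-0.46), Krtap6-5 (-0.63), Mcpt4 (-0.042), Pecam1 (-0.013), S100a8 (-0.70), S100a9 (-0.89) and Sprr2b (-1.02). With quality weights the sign turned for Cd207 (0.20), Cxcl2 (-1.16), Hdc (-0.45), Il6 (-0.27), Krt71 (-0.0093), Krtap6-5 (-1.47), Krtap7-1 (-0.81), Mcpt4 (-0.11), Pecam1 (-0.10), S100a8 (-0.37), S100a9 (-0.61), Sprr2b (-0.51) and Tchh (-0.48). With total-count scaling the sign turned for Gpr35 (-0.016) and Mcpt4 (-0.011). With 1 library left out at a time, log2 fold changes ranged on both sides of 0 for Acta2 (-0.054 to 0.42), Arg1 (-0.52 to 0.59), Cd163 (-0.75 to 0.35), Cd207 (-1.0 to 0.12), Cma1 (-0.25 to 0.29), Col1a1 (-0.91 to 0.23), Col3a1 (-1.09 to 0.33), Cxcl1 (-1.51 to 0.16), Cxcl2 (-3.30 to 2.81), Fcer1a (-0.82 to 0.10), Gpr35 (-0.51 to 0.25), Hdc (-1.43 to 1.32), Il1b (-2.45 to 2.21), Il6 (-1.25 to 2.57), Keap1 (-0.062 to 0.0023), Krt6a (-0.23 to 0.70), Krtap6-5 (-0.14 to 1.40), Lcn2 (-0.99 to 0.34), Mcpt4 (-0.25 to 0.31), Myh4 (-0.013 to 2.77), Oas3 (-0.037 to 0.96), Pecam1 (-0.24 to 0.33), Pmel (-0.15 to 1.24), S100a8 (-0.83 to 1.64), S100a9 (-0.77 to 1.70), Slc24a5 (-0.33 to 2.29), Slc45a2 (-0.28 to 2.16), Sprr2b (-2.33 to 2.95), Synpo2 (-1.22 to 0.33), Tchh (-0.48 to 1.54), Tnf (-0.91 to 0.41) and Tpsb2 (-0.038 to 0.54). None of these genes passed in any setting, and the causes of these turns were not tested. Depth limits the genes under 1 CPM, above all in blank replicate 3, where a count of 0 allows up to 0.786 CPM.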

Other observations

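The 36 genes with an estimate beyond 4-fold, 26 higher and 10 lower, were mostly genes of few reads, and all named here were chosen after their values were seen. Lactoperoxidase (Lpo), an antimicrobial peroxidase, measured 71.4, 9.58 and 0.656 CPM in DSCG and 3.47, 4.53 and 7.34 CPM in blank wounds, at a log2 fold change of 2.5 ± 1.09 (edgeR adjusted p = 0.999). DSCG replicate 1 was far above and DSCG replicate 3 below every blank wound. Pla2g4d, an epithelial phospholipase A2, measured 6.92, 5.27 and 0.0847 CPM against 1.80, 0.270 and 0.524 CPM, at 2.09 ± 1.12, and Lce3d, a late cornified-envelope gene, 25.7, 53.6 and 2.33 CPM against 10.4, 1.48 and 6.29 CPM, at 2.17 ± 0.90. Both were high in DSCG replicates 1 and 2 and low in DSCG replicate 3, the order of the activated keratinocyte list.

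A group of 4 small nucleolar RNA genes also stood beyond 4-fold on the higher side. Snord12 measured 0.279, 2.15 and 0.169 CPM in DSCG and 0.255, 0.104 and 0.524 CPM in blank wounds, and Snora17 0.481, 1.32 and 0.127 CPM against 0.137, 0.146 and 0.262 CPM. Snord65 measured 0.253, 0.615 and 0.127 CPM against 0.0588, 0.0416 and 0.524 CPM, and Snora75 0.101, 0.483 and 0.0212 CPM against 0, 0.0208 and 0.524 CPM. In each the highest DSCG value was that of replicate 2 and the highest blank value that of replicate 3, the libraries short of long transcripts, and in blank replicate 3 every value is at or below the 0.786 CPM that 3 reads give. The part of transcript length in these estimates was not tested. On the lower side, Ttr, the transthyretin gene, measured 0.0507, 0.0220 and 0.106 CPM against 0.216, 0.437 and 0.786 CPM, at -2.62 ± 1.06, with every DSCG value below every blank value at a level of few reads.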
